A study of Mus musculus with 12 samples.

Results

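Toll-like receptors recognise conserved molecules of bacteria, viruses and fungi, and the 10 genes described here encode 8 of these receptors, Tlr1, Tlr2, Tlr3, Tlr4, Tlr5, Tlr6, Tlr7 and Tlr9, with the adaptor Myd88 and the co-receptor Cd14. Their peaks were all rows of the master peak-list that carry one of these symbols as the gene with the nearest transcription start site (TSS), 60 of the 84243 peaks in the list. Peaks were picked by gene name and by no measured value, but the genes were chosen with earlier results of these data known. ATAC-seq, in which a transposase cuts exposed DNA, was run on 12 samples from C57BL/6 wild-type mice, which were 8 to 12 weeks old. The samples were duplicates (n = 2) of 6 sorted cell types. Bone marrow gave hematopoietic stem cells (HSCs), megakaryocyte progenitors (MkPs), erythroid progenitors (EPs), granulocyte/macrophages (GMs) and B cells, and T cells were labelled as thymus. No sample was treated or carried an altered allele according to the labels. The list pools all 12 samples, so a peak says that the site was called open in at least 1 of these cell types and not in which. It was also filtered, and the paper counts more promoter peaks in each cell type than in this list. A missing peak therefore does not show that a site was closed. The list gives no reads per peak and no value per sample. The depth is therefore unknown, no value has an error between replicates, no cell type could be checked against its markers, and no test between cell types was made.

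Receptors on the cell surface bind microbial lipids and proteins. Tlr2 pairs with Tlr1 or Tlr6 to bind lipoproteins, Tlr4 binds lipopolysaccharide handed over by Cd14, and Tlr5 binds flagellin. Tlr3, Tlr7 and Tlr9 sit in endosomes and bind double-stranded RNA, single-stranded RNA and unmethylated CpG DNA. All of these receptors except Tlr3 signal through Myd88, which leads to NF-kB and AP-1, while the endosomal receptors and Tlr4 also lead to interferon regulatory factors (IRFs). In blood the family is best known in macrophages, granulocytes, dendritic cells and B cells, and several members are also found on HSCs.

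The sequences below are chosen examples, 1 or 2 stretches for each of 6 genes, and all but the fifth lie in peaks. They are from GRCm38.p6 (mm10), 5′ to 3′ on the strand of the gene, and were cut to at most 250 bases outside annotated exons. Capitals mark exact matches to short strings of transcription factor families, read on both strands: GAGGAAGT for PU.1, AGGAAG for ETS factors, TTGCNNAA for C/EBP, GAAANNGAA for IRFs, GGAANNGAA for ETS-IRF pairs, TGTGGTT for RUNX, AGATAA for GATA, GGANTTTCC for NF-kB and TGANTCA for AP-1. The ETS string is contained in the PU.1 string, so every PU.1 match is also an ETS match. The first 3 sequences lie at starts, from the promoter peaks of Tlr9 and Myd88 and from the intron 1 peak of Tlr5. The fourth is the stretch before the downstream start of Tlr6 in the RefSeq promoter table, and the fifth is the stretch before the upstream start of Tlr1 in the same table, which no peak overlaps.
Tlr9 promoter, chr9:106222326-106222575, plus strand: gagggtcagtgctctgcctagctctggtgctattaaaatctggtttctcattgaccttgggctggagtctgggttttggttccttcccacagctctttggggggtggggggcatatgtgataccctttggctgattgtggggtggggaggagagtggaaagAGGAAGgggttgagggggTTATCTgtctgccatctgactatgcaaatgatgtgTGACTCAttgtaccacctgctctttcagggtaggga
Myd88 promoter, chr9:119340045-119340294, minus strand: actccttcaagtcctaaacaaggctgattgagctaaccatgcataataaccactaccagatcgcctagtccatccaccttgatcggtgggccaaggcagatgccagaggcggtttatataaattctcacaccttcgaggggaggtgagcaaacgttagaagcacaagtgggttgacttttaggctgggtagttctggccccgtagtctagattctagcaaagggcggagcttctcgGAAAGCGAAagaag
Tlr5 intron 1, chr1:182954883-182955046, plus strand: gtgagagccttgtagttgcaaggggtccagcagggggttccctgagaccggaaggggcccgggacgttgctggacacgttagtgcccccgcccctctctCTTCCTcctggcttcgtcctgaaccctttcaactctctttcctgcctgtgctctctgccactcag
Tlr6 downstream start, chr5:64959167-64959416, minus strand: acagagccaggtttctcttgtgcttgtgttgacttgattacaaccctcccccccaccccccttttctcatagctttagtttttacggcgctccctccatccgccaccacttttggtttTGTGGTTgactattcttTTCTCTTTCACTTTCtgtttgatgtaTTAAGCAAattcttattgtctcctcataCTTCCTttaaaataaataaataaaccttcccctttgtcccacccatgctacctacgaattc
Tlr1 start without a peak, chr5:64933601-64933808, minus strand: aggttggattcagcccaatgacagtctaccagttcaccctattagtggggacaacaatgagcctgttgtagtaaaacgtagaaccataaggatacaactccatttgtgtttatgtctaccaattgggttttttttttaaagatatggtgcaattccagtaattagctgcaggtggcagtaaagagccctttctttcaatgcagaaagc

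The next 5 sequences are stretches of distal peaks, each shown for a set of matches that lie close together and are described with the gene.
Tlr1, 13673 bp downstream of the start, chr5:64918901-64919150, minus strand: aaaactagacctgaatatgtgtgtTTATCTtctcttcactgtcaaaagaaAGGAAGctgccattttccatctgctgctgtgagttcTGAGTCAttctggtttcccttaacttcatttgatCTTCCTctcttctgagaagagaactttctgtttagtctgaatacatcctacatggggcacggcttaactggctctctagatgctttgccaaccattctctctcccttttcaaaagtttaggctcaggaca
Tlr2, 18141 bp upstream, chr3:83859624-83859873, minus strand: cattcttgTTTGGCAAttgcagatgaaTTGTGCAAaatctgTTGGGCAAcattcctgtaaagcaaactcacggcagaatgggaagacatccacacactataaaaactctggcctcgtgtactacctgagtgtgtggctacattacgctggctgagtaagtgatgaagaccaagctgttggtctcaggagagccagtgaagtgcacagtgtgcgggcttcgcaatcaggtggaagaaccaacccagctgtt
Tlr5, 9926 bp upstream, chr1:182944737-182944986, plus strand: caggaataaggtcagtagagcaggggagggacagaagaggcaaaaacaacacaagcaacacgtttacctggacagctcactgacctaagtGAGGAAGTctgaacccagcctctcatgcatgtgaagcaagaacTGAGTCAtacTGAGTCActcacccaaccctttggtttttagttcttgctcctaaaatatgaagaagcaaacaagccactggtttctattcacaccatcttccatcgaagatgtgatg
Tlr6, 1107 bp upstream, chr5:64961078-64961327, minus strand: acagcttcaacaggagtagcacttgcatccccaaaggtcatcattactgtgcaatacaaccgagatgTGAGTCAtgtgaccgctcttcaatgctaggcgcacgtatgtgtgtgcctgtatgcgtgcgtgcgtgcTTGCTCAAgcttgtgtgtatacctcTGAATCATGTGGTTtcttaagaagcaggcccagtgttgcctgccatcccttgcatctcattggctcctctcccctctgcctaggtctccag
Tlr9, 7895 bp downstream, chr9:106230368-106230617, plus strand: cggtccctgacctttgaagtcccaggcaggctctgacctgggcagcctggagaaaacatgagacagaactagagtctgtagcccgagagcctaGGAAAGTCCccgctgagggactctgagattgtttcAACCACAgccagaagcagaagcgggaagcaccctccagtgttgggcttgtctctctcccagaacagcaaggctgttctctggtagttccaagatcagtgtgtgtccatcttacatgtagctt

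Each of the 10 genes had at least 1 peak, where 77.3% of the 21000 protein-coding genes did. A promoter peak, with its centre within 500 bp of the TSS by the deposited distance, was present for 7 of the 10 genes (70.0%) and for 54.8% of all protein-coding genes. Tlr2, Tlr3, Tlr4, Tlr5, Tlr7, Tlr9 and Myd88 had 1 promoter peak each, and Tlr1, Tlr6 and Cd14 had none. The other 53 peaks were distal. Promoter peaks thus made up 11.7% of the peaks of these genes and 15.6% of the whole list.

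**Figure D1:**
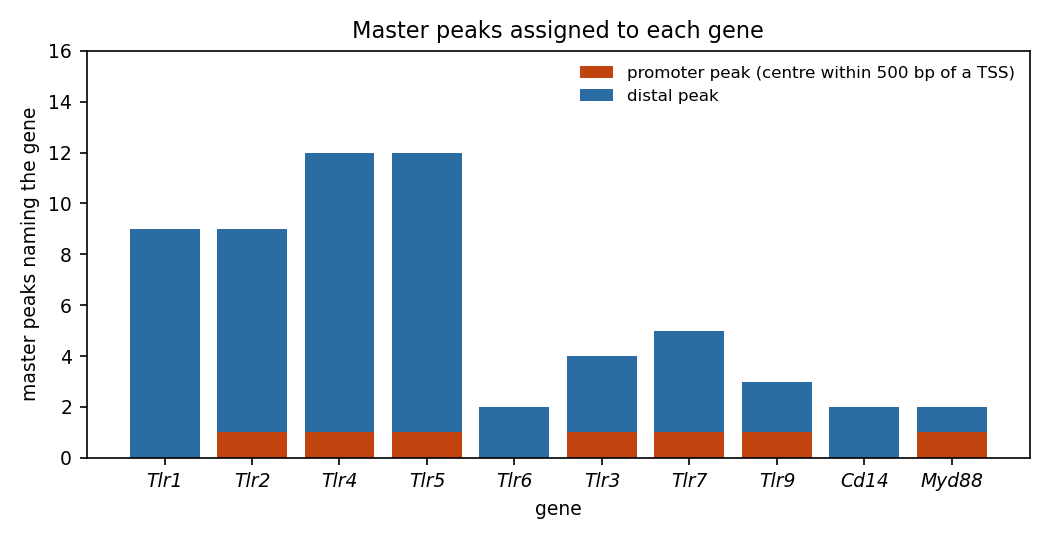
Peaks of the master peak-list that name each gene (y axis, number of peaks), stacked as promoter peaks (orange) and distal peaks (blue), with surface receptors first, then endosomal receptors, the co-receptor and the adaptor. Tlr4 and Tlr5 have 12 peaks each and Tlr6, Cd14 and Myd88 have 2 each, and the bars of Tlr1, Tlr6 and Cd14 have no orange segment. The list is pooled over all samples, so there are no error bars.

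The peaks were unevenly shared among the genes. Tlr4 and Tlr5 had 12 each, Tlr1 and Tlr2 had 9 each, and these 4 surface receptors held 42 of the 60 peaks (70.0%). Tlr7 had 5 peaks, Tlr3 had 4 and Tlr9 had 3, while Tlr6, Myd88 and Cd14 had 2 each. By role, the 5 surface receptors had 44 peaks, of which 3 were promoter peaks. The 3 endosomal receptors had 12, also with 3 promoter peaks, and the co-receptor and the adaptor together had 4. The median was 4.5 peaks per gene here and 2 over all protein-coding genes, or 3 over those with any peak. For distal peaks alone the medians were 3.50 and 1. As many peaks as Tlr4 and Tlr5 had, or more, were found for 5.50% of protein-coding genes, and as many as Tlr6, Myd88 and Cd14 had for 58.0%.

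**Figure D2:**
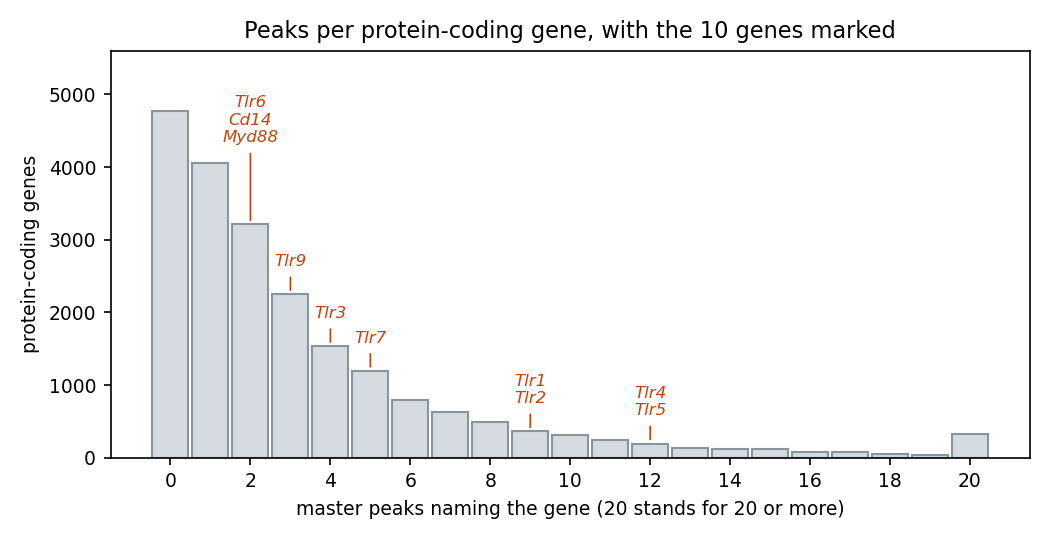
Number of protein-coding genes (y axis) by the number of master peaks naming the gene (x axis, with 20 standing for 20 or more), and the 10 genes marked above their bars. Tlr4 and Tlr5, with 12 peaks, stand in the right tail that holds 5.50% of genes, while Tlr6, Cd14 and Myd88, with 2 peaks, stand at the median of all genes.

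Each peak is given to the nearest start, so a gene with few neighbours can collect peaks from a longer stretch. The territory of each gene was the stretch closer to one of its curated RefSeq starts than to those of another gene. It ranged from 9.43 kb for Myd88 to 959 kb for Tlr4, with a median of 43.5 kb against 42.5 kb over all protein-coding genes. Peaks per 100 kb of territory, counted with the same RefSeq starts, put the genes in another order. Myd88 had 21.2 per 100 kb, Tlr9 had 13.4, Tlr6 had 10.7 and Cd14 had 10.2. Tlr7 had 8.44, Tlr1 had 7.16, Tlr2 had 6.57, Tlr3 had 6.36 and Tlr5 had 6.27, and Tlr4, which had as many peaks as any of the 10 genes, had 1.25. The median density was 7.80 per 100 kb against 4.62 over all protein-coding genes. Pooled over the 1507 kb of all 10 territories it was 3.52, against 3.41 over the territories of all protein-coding genes.

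Distal peaks lay at a median of 26333 bp from the start, and at 22261 bp in the whole list. Within 10 kb of the start there were 17, between 10 and 100 kb 29, and beyond 100 kb 7, which all belonged to Tlr4. Downstream of the start lay 34 of the 53 (64.2%, and 58.3% of all distal peaks). HOMER placed 41 (77.4%) between genes, where it placed 44.6% of all distal peaks, and 7 (13.2%) in introns, where it placed 48.0%. The remaining 5 were in exons (2), 3′ UTRs (2) and the promoter class of HOMER (1). The median length of the 10 gene records was 12.2 kb against 17.7 kb over all protein-coding genes. Tlr4, Tlr5 and Tlr7 exceed 17.7 kb. So does the record of Tlr6 (17.9 kb), but only because it reaches past its curated starts. The part of gene length in these shares was not tested.

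**Figure D3:**
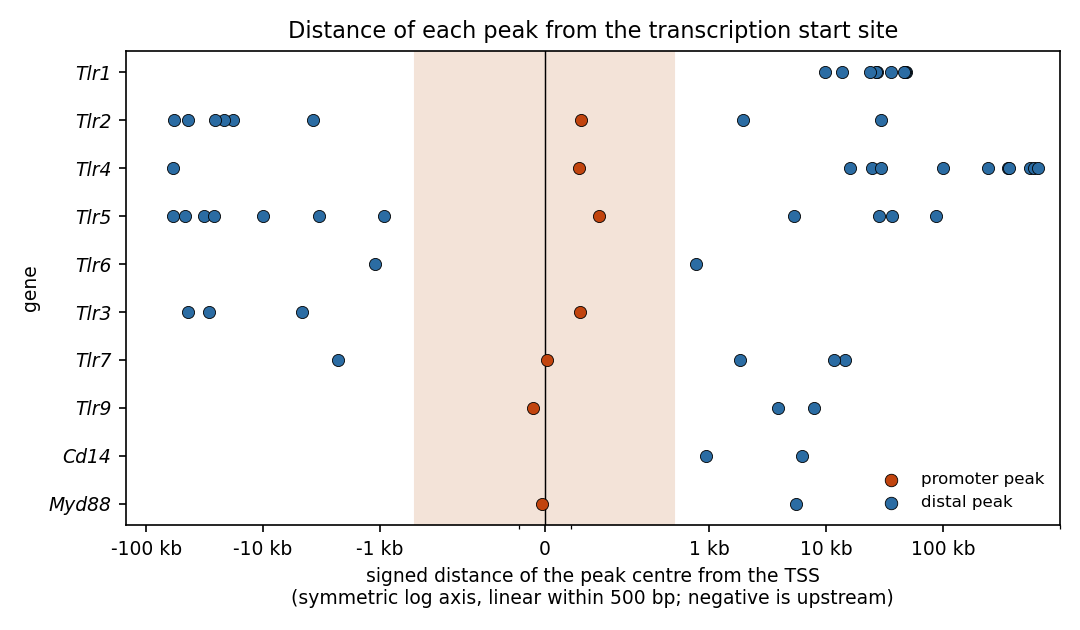
Signed distance of each of the 60 peak centres from the TSS (x axis in bp and kb, symmetric log scale that is linear within 500 bp, negative is upstream), 1 row per gene, promoter peaks in orange and distal peaks in blue, with the 500 bp promoter window shaded. The 9 peaks of Tlr1 are all on the downstream side, 10 of the 11 distal peaks of Tlr4 are downstream, and the 2 peaks of Tlr6 stand outside the shaded window on either side.

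Among the surface receptors, Tlr2 carries the shared chain of both lipoprotein receptors. It lies on chromosome 3 from 83836272 to 83841824 on the minus strand (Gene ID 24088). Its promoter peak was centred 140 bp downstream of the TSS, in intron 1 of 2, and was the only peak of the 10 genes that HOMER assigned to a CpG island, a class that held 2.21% of all peaks and 3.44% of all promoter peaks. Of its 8 distal peaks, 6 lay upstream, at 3760, 18141, 21485, 25591, 43683 and 58118 bp, and the last of these fell in intron 33 of 34 of the neighbour Tmem131l. The other 2 lay 1955 and 29476 bp downstream. The printed peak 18141 bp upstream held 3 C/EBP strings and no other string. C/EBP strings were also present 43683 bp upstream and 21485 bp upstream, so that 3 of the 9 peaks had 6 of them. RUNX strings were found in 4 of the 9 peaks.

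Tlr1, the partner of Tlr2 for triacylated lipoproteins, had no peak at its start in the list. It lies on chromosome 5 from 64924680 to 64933600 on the minus strand (Gene ID 21897), and 0 peaks overlapped the gene. Its 9 peaks were all distal, downstream of the start and intergenic by HOMER, the nearest at 9774 bp and the others at 13673, 23556, 26713, 27213, 35905, 46411, 47500 and 48384 bp. By RefSeq, 7 of the 9 were nearer to the start of Gm21011, which leaves 2 for Tlr1, and the peak at 35905 bp lay in an exon of Gm21011. Around both curated starts of Tlr1, every word of 32 bases occurred once in the genome. The printed peak at 13673 bp held strings of 5 kinds, ETS, C/EBP, RUNX, GATA and AP-1, of which the ETS, GATA and AP-1 matches are in the printed stretch. The peak at 26713 bp held none of the 9 strings. The stretch printed from the Tlr1 start also held none.

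Tlr6, the partner of Tlr2 for diacylated lipoproteins, stands next to Tlr1 on the same strand, on chromosome 5 from 64953092 to 64970942 (Gene ID 21899). That span is the RefSeq gene record, which reaches past the RefSeq Select start at 64960048. Tlr6 had 2 peaks, both outside the promoter window, with centres 761 bp downstream and 1107 bp upstream of the TSS used by HOMER. The upstream peak therefore lies inside the span of the record. RefSeq curates a second start for Tlr6, and the downstream peak was centred 169 bp upstream of it, so with RefSeq starts Tlr6 has a promoter peak. The printed stretch before that start held 2 IRF strings that overlap by 3 letters in the run TTCTCTTTCACTTTC, with a RUNX, a C/EBP and an ETS string beside them. The whole peak held 5 kinds of string. The upstream peak, which HOMER placed on a (CACG)n simple repeat, also held 5 kinds, among them 2 AP-1 strings and a RUNX string directly after one of them. Within 50 kb of the Tlr6 start the list had 9 peaks, of which 7 named another gene.

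Tlr4, the receptor for lipopolysaccharide, lies on chromosome 4 from 66827551 to 66846581 on the plus strand (Gene ID 21898). Its promoter peak was centred 131 bp downstream of the TSS, in the 5′ UTR in exon 1, and held 5 ETS strings, one of them within a PU.1 string, and a C/EBP string. Of its 11 distal peaks, 1 lay 58628 bp upstream and the other 10 downstream. The nearest of these, at 15911 bp, was in the 3′ UTR in exon 3, followed by 24705 and 29657 bp. The next 7 were spread from 100196 to 650078 bp across a stretch with no other gene start between them and Tlr4. Within 50 kb of the start Tlr4 had 4 peaks, where Tlr5 had 10. AP-1 strings were found in 5 of its 12 peaks and PU.1 strings in 3, at the promoter and 24705 and 363169 bp downstream.

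Tlr5, the flagellin receptor, lies on chromosome 1 from 182954752 to 182976044 on the plus strand (Gene ID 53791). Its promoter peak, centred 211 bp downstream of the TSS in intron 1 of 3, was the farthest from a start of the 7 promoter peaks. A further peak was centred 924 bp upstream, just outside the promoter window. The other upstream peaks lay at 3329, 9926, 26333, 31701, 46252 and 58897 bp, and the last fell in the 3′ UTR of the neighbour Susd4. Downstream were 5264 bp, in intron 1, and 28362, 36371 and 86274 bp. All 10 peaks within 50 kb of the start named Tlr5. AP-1 strings were found in 6 of the 12 peaks, all distal, and 5 of these 6 were the upstream peaks from 3329 to 46252 bp. The printed peak 9926 bp upstream, which HOMER placed on a B4A repeat of the SINE class, held 2 AP-1 strings 10 bp apart and a PU.1 string. The intron 1 peak at 5264 bp held none of the 9 strings.

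Among the endosomal receptors, Tlr3, which binds double-stranded RNA, lies on chromosome 8 from 45395665 to 45411075 on the minus strand (Gene ID 142980). It had 4 peaks, a promoter peak centred 138 bp downstream of the TSS in intron 1 of 6 and 3 peaks upstream, at 4664, 28730 and 43890 bp. ETS strings were present in all 4.

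Tlr7, the receptor for single-stranded RNA, lies on chromosome X from 167303380 to 167330574 on the minus strand (Gene ID 170743). It had 5 peaks. The promoter peak was centred 11 bp from the TSS and held an ETS and a C/EBP string. Downstream were 3 peaks in intron 2 of 3, at 1809, 11561 and 14587 bp, and upstream was 1 at 2259 bp. ETS strings were found in 4 of the 5 peaks. Its X-linked neighbour Tlr8, another receptor for single-stranded RNA, had 2 peaks and no promoter peak, the nearest 12555 bp from its start.

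Tlr9, the receptor for CpG DNA, lies on chromosome 9 from 106222598 to 106226876 on the plus strand (Gene ID 81897). Its promoter peak was centred 44 bp upstream of the TSS. It held an AP-1 string 55 bp upstream, a GATA string 90 bp upstream and an ETS string 108 bp upstream, all in the printed stretch, and a PU.1 string 14 bp downstream. The other peaks lay 3840 bp downstream, in coding exon 2 of 2, and 7895 bp downstream. The printed part of the last held an NF-kB and a RUNX string, and the whole peak also held 2 AP-1 strings. Within 50 kb of the Tlr9 start the list had 14 peaks, of which 11 named another gene.

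Myd88, the adaptor of all these receptors but Tlr3, lies on chromosome 9 from 119335934 to 119340018 on the minus strand (Gene ID 17874). It had 2 peaks, a promoter peak centred 9 bp upstream of the TSS used by HOMER and a distal peak 5462 bp downstream. From the RefSeq start the promoter peak was centred 31 bp upstream. The promoter peak held an IRF string 14 bp upstream of the TSS used by HOMER, at the end of the printed stretch. It also held an NF-kB string 30 bp downstream of that TSS. By the deposited distance, no other promoter peak of the 10 genes held an IRF or an NF-kB string. The Tlr6 peak that is a promoter peak with RefSeq starts held 2 IRF strings. The start of the neighbour Acaa1a lies 1245 bp from the centre of the Myd88 promoter peak, and that start has a promoter peak of its own.

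Cd14, the co-receptor that hands lipopolysaccharide to Tlr4, lies on chromosome 18 from 36725064 to 36726815 on the minus strand (Gene ID 12475). It had no promoter peak. Its 2 peaks were centred 941 bp downstream of the TSS, in coding exon 2 of 2, and 6246 bp downstream. Each held a C/EBP string and none of the other 8 kinds.

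**Figure D4:**
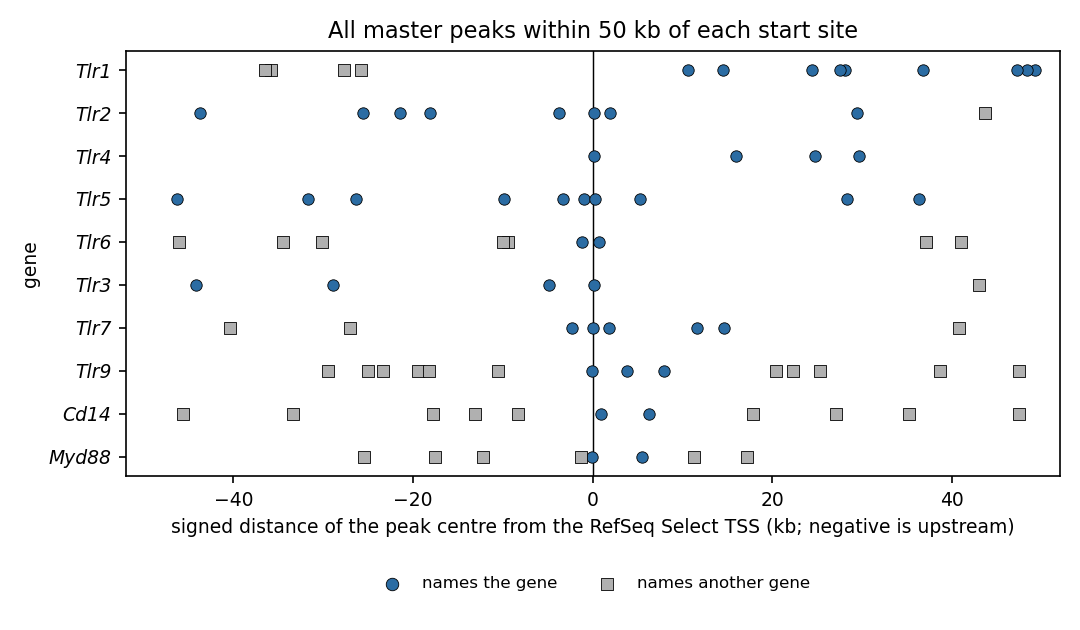
All master peaks within 50 kb of the RefSeq Select start of each gene (x axis, signed distance of the peak centre in kb, negative is upstream), as circles where the peak names the gene and squares where it names another gene. Tlr4 and Tlr5 have circles alone, while 11 of 14 peaks around Tlr9 and 9 of 11 around Cd14 are squares.

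The promoter peaks of these genes were poorer in CpG than most promoter peaks. They held 29 CpG in Myd88, 28 in Tlr2, 22 in Tlr5, 15 in Tlr3, 8 in Tlr4, 8 in Tlr7 and 3 in Tlr9. The median was 15 per peak, against 38 over all 13171 promoter peaks, and 68.3% of all promoter peaks held more than the 29 of Myd88. Fewer than the 3 of Tlr9 were held by 0.873%. The median GC content was 53.7% against 63.3%, from 42.3% in Tlr7 to 66.1% in Tlr2. Distal peaks differed less, with a median of 6 CpG in both and a GC content of 46.5% against 47.7%. No test was made on these values.

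Over the 60 peaks, the shares with the ETS string (37 peaks, 61.7%), the GATA string (15, 25.0%), the PU.1 string (6, 10.0%), the IRF string (10, 16.7%) and the ETS-IRF string (9, 15.0%) lay near those of the whole list, which were 62.4%, 24.1%, 9.39%, 16.3% and 16.1%. AP-1 strings were found in 16 peaks (26.7%, and 15.3% of all peaks), C/EBP strings in 17 (28.3%, and 19.3%), RUNX strings in 14 (23.3%, and 16.1%) and NF-kB strings in 3 (5.00%, and 2.06%). The AP-1 peaks belonged to 6 genes, with 6 in Tlr5 and 5 in Tlr4. The NF-kB peaks were those of the Myd88 promoter, Tlr9 at 7895 bp and Tlr2 at 29476 bp. By the deposited distance all 14 RUNX peaks were distal, among them the Tlr6 peak that is a promoter peak with RefSeq starts. Over the whole list the RUNX string was found in 18% of distal and 5.88% of promoter peaks. With 1 mismatch allowed, the AP-1 share was 90% against 88.9% of all peaks. The looser string is found in most peaks of the list, so this setting cannot show whether the gap depends on the exact match. In the central 200 bp, 12 of the 60 peaks held the exact AP-1 string, against 7.94% of all peaks. Peaks of 1 gene are not replicates and these shares have no test. A match is a run of letters, not evidence of binding.

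**Figure D5:**
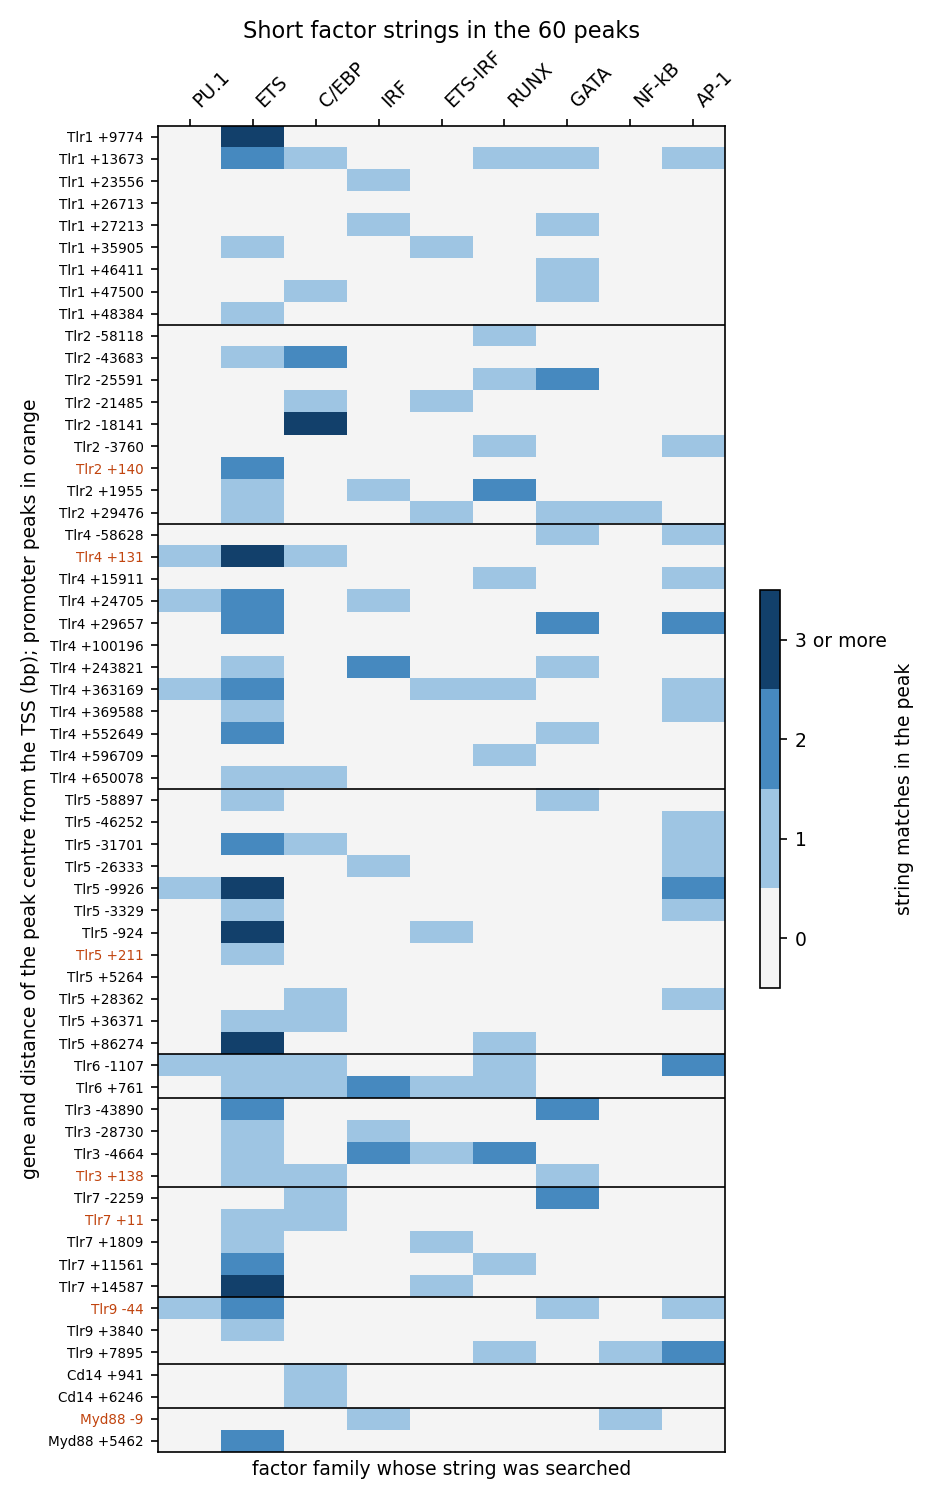
Matches of 9 short strings (columns) in each of the 60 peaks (rows, labelled by gene and by the distance of the peak centre from the TSS in bp, promoter peaks in orange), with darker blue for more matches. AP-1 matches line up in the upstream peaks of Tlr5, the 3 C/EBP matches of Tlr2 stand at -18141 bp, and 3 distal peaks have no match.

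A list of 36 other genes of Toll-like receptor signaling, with further receptors, chaperones, adaptors, kinases and inhibitors, was read in the same way. Of these, 35 had a peak and 32 (88.9%) had a promoter peak, against 54.8% of all protein-coding genes, with a median of 5.00 peaks per gene. The 4 without a promoter peak were the receptors Tlr8 and Tlr11, the kinase Irak4 and the chaperone Hsp90b1. Hsp90b1 had no peak in this filtered list, which does not show that its start was closed. The most peaks, 35, were given to Ly86, which encodes a secreted partner of a Toll-like receptor homolog. Next came the kinase gene Map3k7 with 30 and Tab2, which encodes a binding partner of that kinase, with 21. Their territories were long, 192 kb for Ly86, 876 kb for Map3k7 and 343 kb for Tab2. The median over all protein-coding genes was 42.5 kb.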

How the data were processed

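Peaks of 12 ATAC-seq samples (2 replicates of 6 cell types) were analysed. The authors ran the ENCODE pipeline for ATAC-seq against mm10, leaving out multimapping reads, took the reproducible peak-list of each cell type, joined the lists, filtered them to non-overlapping peaks with chromVAR and annotated them with HOMER (4.10.2 in the submitters' processing notes). Start, end and distance to the TSS, in bp, were used as deposited by the authors, without normalization. Every peak was 499 bp wide, and the deposited score was 0 throughout and was not used. Depth per sample is unknown.

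The 10 genes and the gene and string lists were chosen with earlier results of these data known. All 10 genes were named, of the other pathway genes the 3 with most peaks and any with none, and other genes as neighbours. Tlr11 and Irak4 were named outside this rule, after their values were seen. Gene spans and lengths are those of the RefSeq gene records of GRCm38.p6, release 108, which can reach past the curated starts. Start sites came from curated RefSeq transcripts of the same release. For 73658 of 84243 peaks (87.4%), and 49 of the 60, the deposited distance was within 2 bp of the RefSeq distance. Strings were searched on both strands of the whole peak with a search tested on simulated data. Sequences are from the RefSeq genome, and 7 of the 10 genes matched its promoter table. The sequence of 1 Tlr3 peak is not reported here. Alternatives concerned the promoter window, the assignment of peaks and the string match. No test was made. Tables were handled with pandas 2.3.3 and numpy 2.4.6 and figures drawn with matplotlib 3.10.9, in Python 3.11.15.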

Additional observations from a re-analysis of the deposited data

How the results depend on the processing

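The count of 7 promoter peaks, in 7 of the 10 genes, became 3 peaks in 3 genes with centres within 100 bp of a TSS, and 4 peaks in 4 genes with a window from 1000 bp upstream to 100 bp downstream. With 1000 bp on both sides it was 10 peaks in 9 genes, and with curated RefSeq starts 8 peaks in 8 genes. The 60 peaks became 53 by the nearest RefSeq start, 91 within 50 kb of the start and 19 by overlap with the RefSeq gene record. They became 112 under a rule that gives each gene a basal domain (2 kb before and 1 kb after its start). That rule extends the basal domain to the next domain or 1 Mb. The 53 distal peaks ranged from 45 to 57. In the central 200 bp, IRF strings were found in 5 peaks instead of 10 and GATA strings in 5 instead of 15, or 8.33% each, against 6.96% and 11.2% of all peaks. With 1 mismatch allowed, strings were found in 32 peaks for PU.1 (53.3%, and 60.1% of all peaks), 60 for ETS (all, and 99.9%), 59 for C/EBP (98.3%, and 95.5%), 58 for IRF (96.7%, and 86.8%), 57 for ETS-IRF (95.0%, and 87.8%), 56 for RUNX (93.3%, and 84.9%), 59 for GATA (98.3%, and 95.5%), 22 for NF-kB (36.7%, and 33.5%) and 54 for AP-1 (90%, and 88.9%). Of 36 alternatives, 18 stayed within 1.5 times the value reported. No paired analysis was possible because the list holds no value per sample. For the same reason no replicate could be left out, and a stricter score could not be set because the score is 0 in every peak.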

Other observations

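Of the 53 distal peaks, 11 (20.8%) were centred on an annotated repeat, and 17.9% of all distal peaks were. They belonged to Tlr1, Tlr2, Tlr4, Tlr5, Tlr6 and Tlr7. Repeats of the long terminal repeat (LTR) class were named for the Tlr1 peaks at 9774 and 27213 bp downstream and the Tlr2 peak 25591 bp upstream. The same class was named for the Tlr4 peaks 29657 and 596709 bp downstream and the Tlr7 peak 11561 bp downstream. LINE elements were named 243821 bp downstream of Tlr4 and 14587 bp downstream of Tlr7. SINE elements were named 1955 bp downstream of Tlr2 and 9926 bp upstream of Tlr5, and a simple repeat 1107 bp upstream of Tlr6. Words of 32 bases that occur once in the genome made up a median of 100% of the words of a peak, and all of them in 46 of the 60 peaks. Words with unknown bases were left out. The Tlr5 peak 28362 bp downstream is partly unknown sequence, with 337 words counted where other peaks had 468. String matches in that peak could be found only in its known part. The lowest share was 53.4%, in the Tlr1 peak at 27213 bp, and 8 peaks were under 90%.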
